A study of Homo sapiens with 18 samples.

Results

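Cells take up, exchange and release amino acids through carrier proteins encoded by solute carrier (SLC) genes, and 33 such genes were examined in human U2OS cells. They are the protein-coding genes whose symbol places them in the SLC1, SLC3, SLC7, SLC36, SLC38 or SLC43 family, out of 25296 genes in the deposited table, 16451 of them protein-coding. Of the 33, 30 had enough reads to be tested, and SLC1A2, SLC1A7 and SLC7A9 did not, with at most 14 counts in a library. A list of these families written by role held 40 genes, and the 7 without a row in the table (SLC7A4, SLC7A13, SLC7A14, SLC36A2, SLC36A3, SLC38A8 and SLC38A11) were not analysed here. Every one of the 33 positions given in the table overlapped the gene of that symbol in the GENCODE annotation of GRCh38.

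U2OS is an established osteosarcoma cell line, and 3 derivatives of it were compared, one carrying the empty retroviral vector MigR1 (EV), one overexpressing wild-type DNMT3A (WT) and one overexpressing a mutant DNMT3A (MUT). DNMT3A places methyl groups on DNA, and the mutant allele is named R882C in the series text and R882H in the sample labels, so the line is called MUT here. Each line was profiled by sequencing of total RNA without drug and after 24 h in 10 µM cytarabine, a nucleoside drug that stalls DNA replication once incorporated, with 3 cultures for each of the 6 groups, which the labels call biological triplicates. The drug-free cells are labelled untreated in the sample labels and called a vehicle control in the series text. Whether a derivative is a clone or a pool of infected cells is not given in the sources used here, and each line stands for a single derivation, so a difference between lines and a difference between their founding cells cannot be told apart. The p-values measure the spread between cultures of 1 line.

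Amino acid transporters fall into groups by structure and by the ion or amino acid they exchange. The heteromeric transporters pair a light chain of the SLC7 family, which carries the substrate, with a heavy chain of the SLC3 family, which brings it to the membrane: SLC7A5 with SLC3A2 forms LAT1, the exchanger that brings leucine and other large neutral amino acids into proliferating cells, and SLC7A11 with SLC3A2 forms the cystine-glutamate exchanger that feeds glutathione synthesis. SLC7A1 to SLC7A3 carry arginine and lysine without a heavy chain, the SLC1 family holds glutamate transporters and the neutral exchangers ASCT1 and ASCT2, and the SLC36, SLC38 and SLC43 families carry mainly neutral amino acids at the plasma membrane or the lysosome. Amino acid supply is read by mTORC1 at the lysosome, and a shortage raises the transcription factor ATF4, which has several of these transporters among its known targets.

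Library totals ran from 15.4 to 21.9 M estimated counts. DNMT3A, the check of the labels, stood at 26.9 ± 0.662 counts per M (CPM; mean ± SD, n = 3) in untreated EV, 133 ± 5.17 in untreated WT and 456 ± 185 in untreated MUT cells, lowest in EV and highest in MUT, with endogenous and introduced transcripts in 1 row of the table. The 3 untreated MUT libraries were the least alike, with a chi-square per degree of freedom between replicates of 23.2 to 51.4 against 2.51 to 16.5 in the other groups. DNMT3A in them was 499.7, 615 and 254 CPM. Named results of members that use them are therefore also given without each of the 3 where that changes a call. Genes outside the 33 members were not examined in that way. Of the osteoblast and mesenchymal markers, RUNX2 (29.6 to 53.2 CPM over the libraries), COL1A1, SPARC, VIM, FN1 and ALPL were present, COL1A2 was low and BGLAP did not pass 0.437 CPM. Of the markers of other cells, PTPRC, PECAM1 and ALB did not pass 1.41 CPM, EPCAM ran from 1.85 to 4.01, GFAP from 0.234 to 5.03 and CDH1 from 0.370 to 5.18 CPM. SP7, IBSP, CD3E and MYOD1 had no row and were not analysed here.

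The transporters spanned a wide range of levels. Per kilobase of the canonical transcript, and averaged over all 18 libraries, SLC3A2 stood highest at 133 CPM per kb, followed by SLC1A5 at 121, SLC7A5 at 110.1, SLC38A2 at 81.7, SLC43A3 at 53.5, SLC7A1 at 27.9, SLC38A10 at 20.7 and SLC1A4 at 18.2 CPM per kb. The leading carriers were thus the LAT1 pair, the glutamine exchanger ASCT2 (SLC1A5) and SNAT2 (SLC38A2). In untreated EV cells SLC7A5 led at 174 CPM per kb, before SLC3A2 at 167 and SLC1A5 at 142. SLC1A2 closed the order at 0.00573 CPM per kb. All 33 members together took 0.280% of the counts in untreated EV libraries and 0.207% after cytarabine, 0.260% and 0.230% in WT, and 0.242% and 0.216% in MUT libraries.

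**Figure D1:**
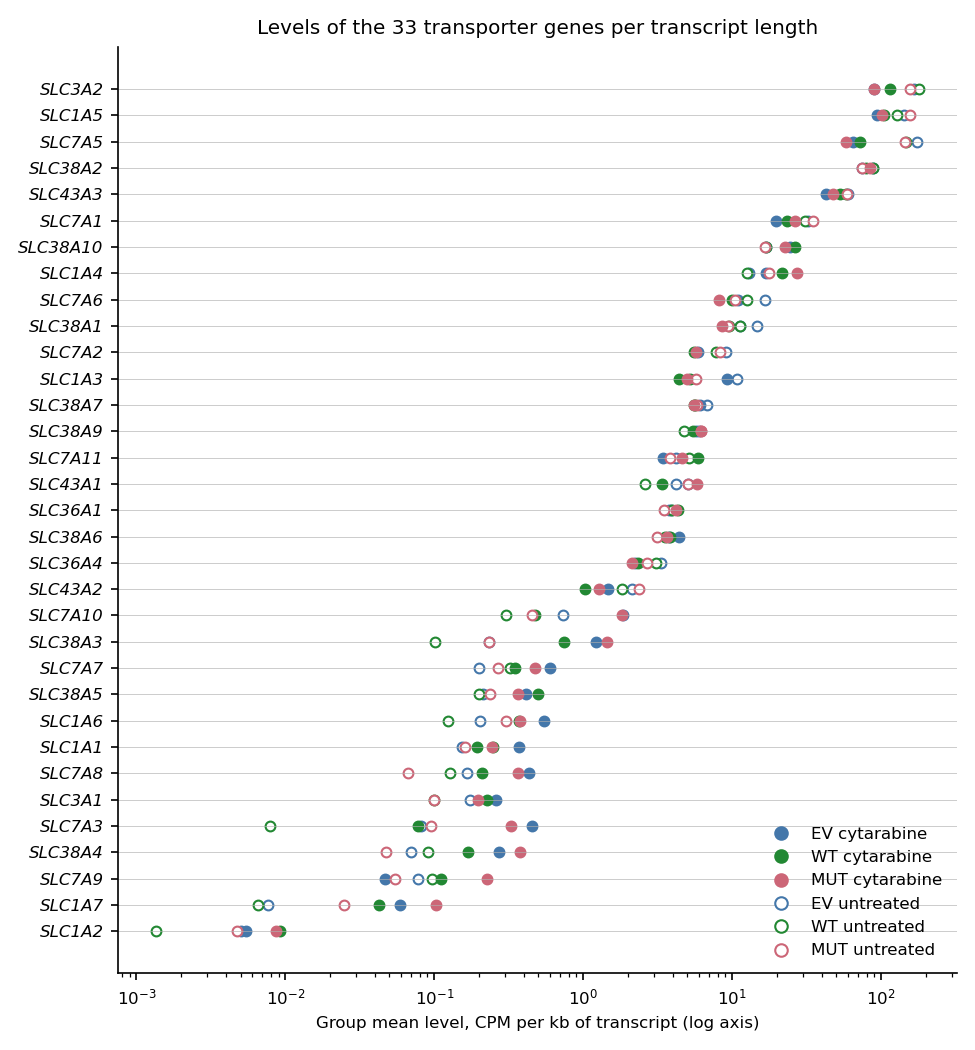
Levels of the transporter genes per kilobase of canonical transcript (CPM per kb, log axis), with a point for each of the 6 group means (open, untreated; filled, cytarabine). SLC3A2, SLC1A5 and SLC7A5 lead the order, and the rarely read genes lie several powers of 10 below them.

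Cytarabine changed most of the transporters, and of the members called, the abundant ones mostly fell and the rarely read ones all rose. In RNA from whole cultures a change in every cell and a change in a share of the cells, or in the number of cells and in RNA per cell, cannot be told apart. In EV cells 23 of the 30 tested members passed the threshold (an adjusted p under 0.05 by edgeR's quasi-likelihood test, with Benjamini-Hochberg adjustment across 18226 tested genes), 10 higher and 13 lower, where 49.1% of all tested genes passed, 26.1% higher and 22.9% lower. The WT line had 16, 6 higher and 10 lower, against 49.0% of all genes (26.3% and 22.7%). In MUT cells it was 18, 9 in each direction, against 56.3% of all genes (30.4% and 25.9%). The WT and MUT shares are near that background, so the number changed is not in itself particular to transporters there. The EV share of 76.7% lies above it, and whether that is particular to transporters was not tested. In EV the count was 19 to 21 with a single library left out. It was 14 with a minimum mean of 50 counts, which removes the rarely read members. Without untreated WT replicate 1 the WT count was 10. In the MUT line it was 16 to 18 without any 1 of the untreated libraries. With upper-quartile scaling the splits were 11 higher and 10 lower in EV, 9 and 9 in WT, and 11 and 8 in MUT. With the authors' library factors they were 10 and 13, 6 and 12, and 7 and 11.

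The median log2 fold change of the tested members was 0.06 in EV, 0.11 in WT and 0.21 in MUT, beside 0.05, 0.03 and 0.05 over all tested genes. Split at a mean level of 5 CPM, a line drawn after the levels were seen, 20 members lay above it, of which 13 fell and 2 rose in EV, 10 fell and 3 rose in WT, and 9 fell and 4 rose in MUT. Among all genes above that level, 33.7%, 32.2% and 36.1% fell and 24.8%, 26.1% and 29.6% rose. Of the 10 members below it, 8, 3 and 5 rose and none was called lower by edgeR, beside 28.6%, 26.6% and 32.0% rising and 3.02%, 5.31% and 6.93% falling among all such genes. The filter on low counts asks for enough reads in any 3 libraries, treated or untreated. Members such as SLC7A3 and SLC38A4, with at most 6 and 10 counts in an untreated library, entered through their treated libraries. SLC38A3 and SLC7A8, with at most 21 and 19 counts in an untreated library, also needed treated libraries to enter. Such members could hardly be called lower, so the direction below the line is not independent of the filter.

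By pattern, 8 members fell in all 3 lines (SLC7A5, SLC3A2, SLC7A1, SLC7A2, SLC7A6, SLC1A5, SLC43A2 and SLC36A4), a pattern shown by 16.4% of all tested genes. Another 4 rose in all 3 lines (SLC1A4, SLC38A10, SLC38A3 and SLC7A3; 18.9% of all genes), 10 passed in 1 or 2 lines in a single direction (33.2%), and 6 passed in none by this test (SLC36A1, SLC38A5, SLC38A6, SLC38A7, SLC38A9 and SLC3A1; 31.2%), although 4 of them (SLC36A1, SLC38A5, SLC38A9 and SLC3A1) passed in a line under another setting or without 1 library, as given with their values. SLC38A2 and SLC7A11 were called lower in EV and higher in MUT. Of all tested genes, 53 (these 2 included) were called in opposite directions between lines (0.291%). Each of these calls was lost under at least 1 other scaling, as given with the values of the genes.

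**Figure D2:**
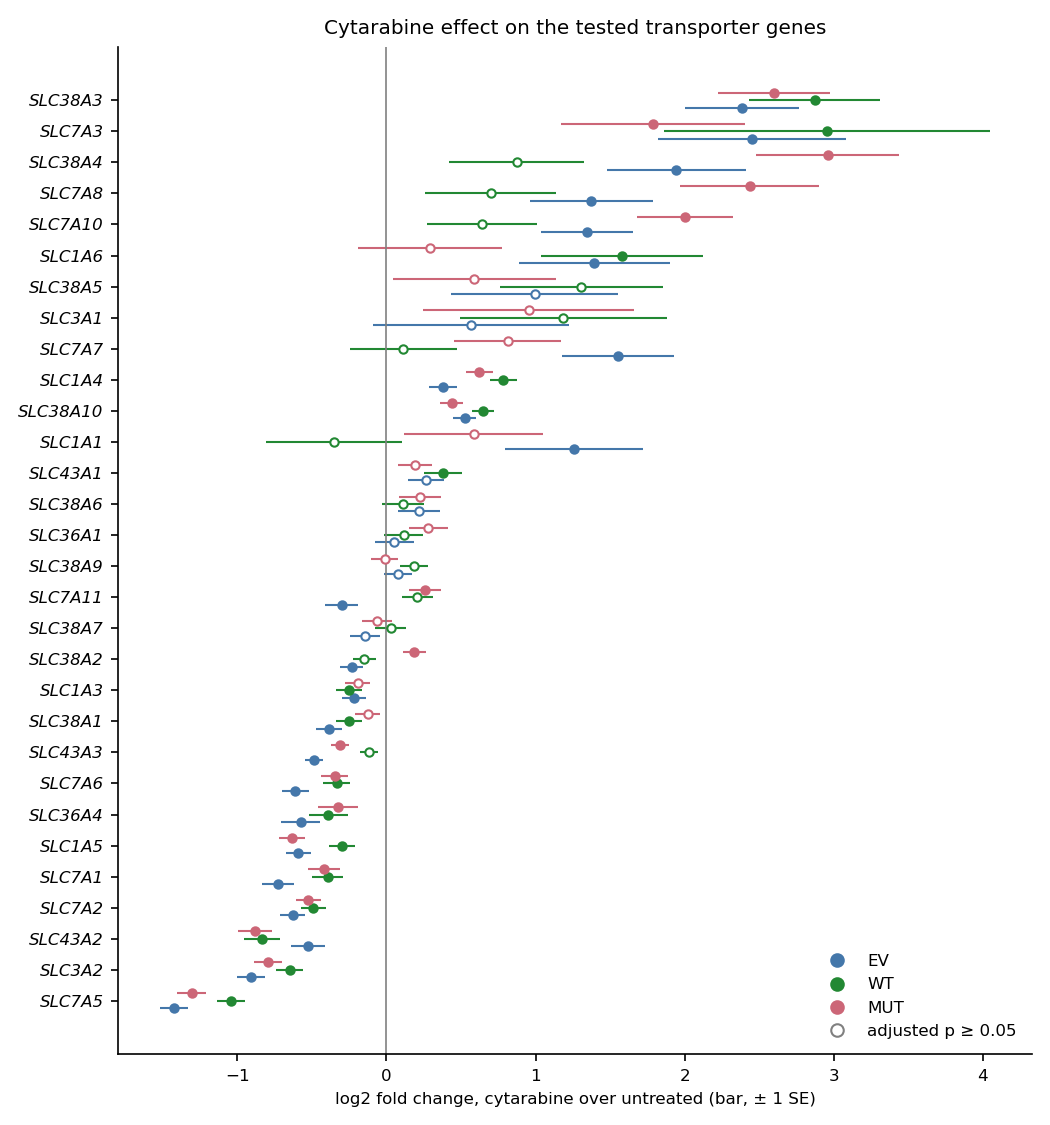
Cytarabine effect on each tested transporter gene as log2 fold change (treated against untreated) in EV, WT and MUT cells, with bars of 1 standard error; filled points passed the edgeR threshold and open points did not. The LAT1 genes SLC7A5 and SLC3A2 lie left of 0 in all 3 lines and SLC38A3 lies right of it in all 3.

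The largest fall among the abundant members was that of SLC7A5 (chromosome 16, 87830023 to 87869489, minus strand), which encodes the light chain of LAT1. Its transcript stood at 805, 788 and 785 CPM in the 3 untreated EV libraries and at 256, 331 and 299 CPM after cytarabine. The WT line gave 684, 657 and 677 CPM untreated and 301, 356 and 324 CPM treated, and MUT gave 637, 748 and 585 CPM untreated and 246, 279 and 271 CPM treated. Every treated library lay below every untreated library of its line, and the highest treated value of any line was under the lowest untreated value of all. The log2 fold change was -1.42 in EV, -1.04 in WT and -1.31 in MUT (SE 0.0955, 0.0947 and 0.0953), with adjusted p-values of 1.1e-09, 4.0e-08 and 1.6e-09 in edgeR, and so the transcript fell 2.68-fold in EV cells.

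SLC3A2 (chromosome 11, 62856102 to 62888876, plus strand), the heavy chain shared by LAT1 and other SLC7 light chains, also fell in all 3 lines, by less. Its untreated EV libraries held 321, 319 and 305 CPM and the treated ones 165, 156 and 182. Values were 337, 348 and 331 CPM untreated and 203, 219.8 and 225 CPM treated in WT, and 299.5, 249.9 and 332 CPM untreated and 150.4, 177 and 182 CPM treated in MUT, again without overlap in any line. The log2 fold changes were -0.91 in EV, -0.65 in WT and -0.79 in MUT (SE 0.0922, 0.0916 and 0.0920; adjusted p in edgeR 1.7e-07, 9.0e-06 and 6.0e-07). Per kb, the ratio of SLC7A5 to SLC3A2 was 1.04 ± 0.0197 before and 0.733 ± 0.128 after cytarabine in EV (SD, n = 3), 0.822 ± 0.0349 and 0.627 ± 0.0395 in WT, and 0.949 ± 0.261 and 0.649 ± 0.0298 in MUT.

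**Figure D3:**
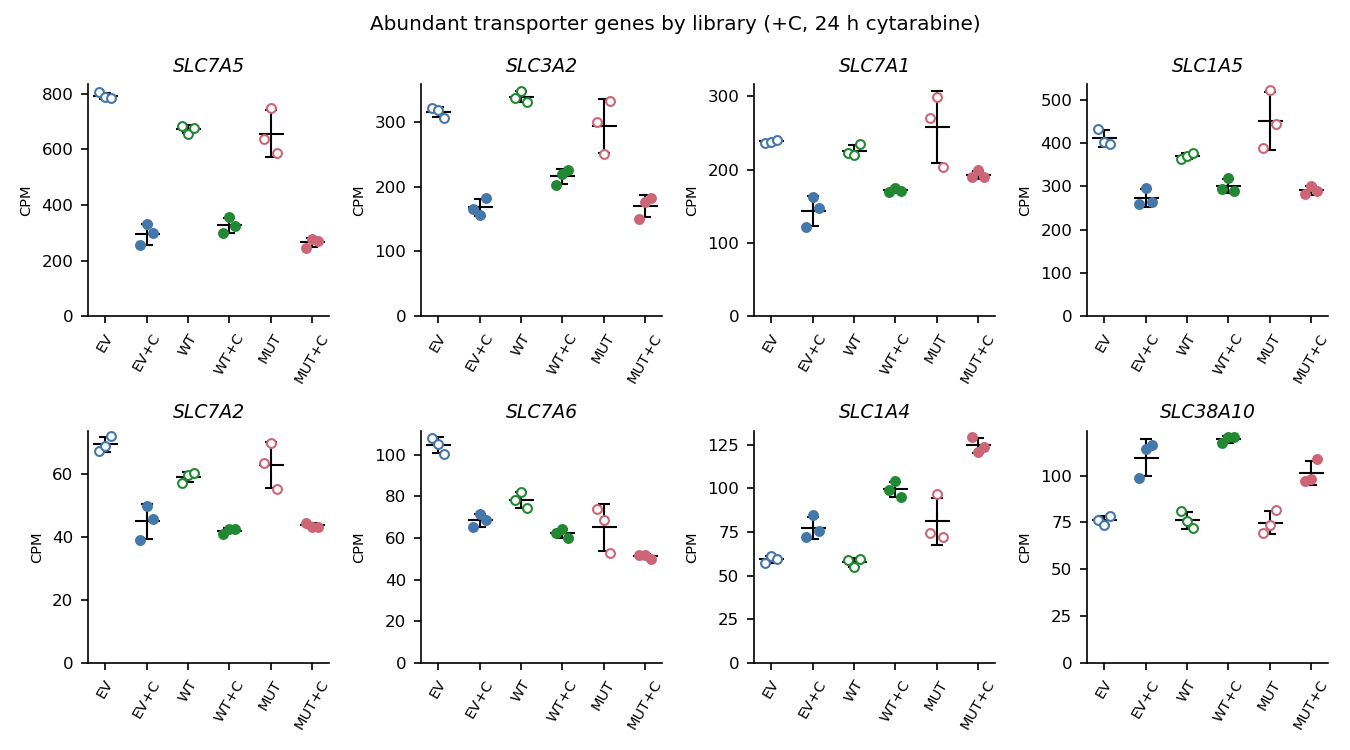
Levels of 8 abundant transporter genes by library (CPM, linear axes), 3 untreated and 3 cytarabine-treated libraries for each of EV, WT and MUT, drawn open and filled, with the group mean ± SD (n = 3) in black. SLC7A5, SLC3A2, SLC7A1, SLC1A5, SLC7A2 and SLC7A6 lie lower after cytarabine in each line, and SLC1A4 and SLC38A10 lie higher.

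Promoter windows of 3 members that fell together and of 1 that rose are shown here, since they differ in which response motifs they hold. The sequences are from RefSeq on GRCh38.p14, run from 250 bases before to 50 bases after an annotated transcription start, and read 5′ to 3′ along the gene's strand. The window of SLC7A5 is chr16:87869458-87869757, minus strand, that of SLC3A2 is chr11:62881449-62881748, plus strand, that of SLC7A1 is chr13:29595639-29595938, minus strand and that of SLC1A4 is chr2:64989149-64989448, plus strand. SLC3A2 and SLC1A4 have further annotated starts, and the window with a motif was taken. Capitals mark matches to the letters TGATGNAA or TGACNNNGC on either strand.
SLC7A5: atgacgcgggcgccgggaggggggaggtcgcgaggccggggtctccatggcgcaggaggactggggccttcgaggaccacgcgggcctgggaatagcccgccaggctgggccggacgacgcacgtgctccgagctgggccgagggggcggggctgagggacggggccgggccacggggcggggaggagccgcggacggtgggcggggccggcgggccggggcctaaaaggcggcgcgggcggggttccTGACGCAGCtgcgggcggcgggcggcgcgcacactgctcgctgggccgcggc
SLC3A2: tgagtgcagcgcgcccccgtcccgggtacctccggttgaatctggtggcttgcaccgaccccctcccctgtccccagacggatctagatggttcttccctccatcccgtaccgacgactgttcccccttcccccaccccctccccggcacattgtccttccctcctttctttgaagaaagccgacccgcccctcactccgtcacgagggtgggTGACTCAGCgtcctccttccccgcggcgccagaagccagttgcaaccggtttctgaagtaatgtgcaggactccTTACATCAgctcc
SLC7A1: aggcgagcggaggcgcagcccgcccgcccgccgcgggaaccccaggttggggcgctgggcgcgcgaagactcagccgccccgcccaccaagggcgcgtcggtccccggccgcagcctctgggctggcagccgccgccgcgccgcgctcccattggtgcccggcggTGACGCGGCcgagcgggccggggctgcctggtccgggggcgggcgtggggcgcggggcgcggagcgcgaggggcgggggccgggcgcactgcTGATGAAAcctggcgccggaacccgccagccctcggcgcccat
SLC1A4: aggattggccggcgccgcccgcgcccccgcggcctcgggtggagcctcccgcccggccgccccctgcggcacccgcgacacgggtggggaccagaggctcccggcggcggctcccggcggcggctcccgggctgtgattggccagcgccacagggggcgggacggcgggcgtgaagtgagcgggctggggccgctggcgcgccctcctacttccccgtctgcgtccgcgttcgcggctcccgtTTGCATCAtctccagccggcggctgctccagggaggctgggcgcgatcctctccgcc
TGATGNAA is the core of the amino acid response element bound by ATF4 with C/EBP proteins, and TGACNNNGC is the core of the antioxidant response element bound by NRF2. The first stands in the windows of SLC3A2, SLC7A1 and SLC1A4 (in SLC3A2 and SLC1A4 on the other strand, as TTACATCA and TTGCATCA). The second stands in those of SLC7A5, SLC3A2 and SLC7A1. As these genes were picked and windows with a motif taken, no relation between motif and direction can be read from them. Symbols of 26 of the 33 members matched the promoter table, with 48 windows. TGATGNAA was found in 6 of these windows, of 6 genes (SLC1A3, SLC1A4, SLC1A5, SLC38A1, SLC3A2 and SLC7A1), and in 3.62% of all 35116 windows of this length. TGACNNNGC was found in 7 of the 48 windows, of 7 genes (SLC1A3, SLC1A5, SLC3A2, SLC7A1, SLC7A5, SLC7A6 and SLC7A7) and in 13.3% of all windows, so its share among the members' windows is near that of all. The CLEAR element of lysosomal genes, searched without mismatches on both strands, was in none of the members' windows and in 0.353% of all. No matches overlap in the windows shown. The match TGACTCAGC in SLC3A2 also holds the letters TGACTCA of an AP-1 site. A match is a run of letters only, and no binding was measured.

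Of the other light chains, SLC7A6 fell in all 3 lines. It encodes y+LAT2, which exchanges arginine for glutamine and sodium. EV cells held 108, 105 and 100.3 CPM untreated and 65.3, 71.5 and 68.6 CPM treated, WT cells 78.0, 82.2 and 74.4 CPM untreated and 62.2, 64.1 and 60.0 CPM treated and MUT cells 73.9, 68.6 and 52.5 CPM untreated and 51.7, 51.9 and 49.7 CPM treated. No treated library reached an untreated one of its line. On the log2 scale it changed by -0.61 in EV, -0.33 in WT and -0.35 in MUT (SE 0.0891, 0.0895 and 0.0904). SLC7A6OS, a gene that overlaps it on the opposite strand and held 35.9% as many counts, changed by -0.58, -0.36 and -0.42. The sources used here do not say whether strand was used in counting, so reads of these overlapping genes cannot be told apart.

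SLC7A11 (xCT), the cystine carrier, moved little and not in a single direction. EV libraries held 39.6, 41.1 and 40.9 CPM untreated and 26.6, 37.6 and 34.6 CPM treated, WT libraries 47.9, 50.4 and 50.3 CPM untreated and 58.3, 61.2 and 52.3 CPM treated and MUT libraries 35.5, 39.9 and 35.8 CPM untreated and 38.6, 50.8 and 43.7 CPM treated. The untreated and treated groups did not overlap in EV or WT and overlapped in MUT. The log2 fold change was -0.30 in EV, 0.21 in WT and 0.26 in MUT (SE 0.110, 0.106 and 0.108; adjusted p in edgeR 0.0296, 0.114 and 0.0481), which is a fall in EV and a rise in MUT by the test, with WT not past the threshold. The call in EV was lost without treated EV replicate 1 or untreated EV replicate 1 or 2 or 3, where the log2 fold change was -0.32 to -0.17 and the adjusted p in edgeR 0.0520 to 0.190. The call in MUT was lost without treated MUT replicate 2 or 3 or untreated MUT replicate 1 or 3, where the log2 fold change was 0.15 to 0.27 and the adjusted p in edgeR 0.0808 to 0.272. The EV call was also lost with a minimum mean of 50 counts or upper-quartile scaling (adjusted p 0.0523 to 0.0754 in edgeR). The MUT call was lost with DESeq2, the authors' factors, DESeq2 size factors in edgeR, no filter on low counts or only the compared groups in the fit (adjusted p 0.0774 to 0.152 in edgeR or DESeq2). In WT the gene passed as higher with a minimum mean of 50 counts, only the compared groups in the fit or upper-quartile scaling (adjusted p 0.00318 to 0.0491 in edgeR).

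The rarely read light chains went the other way. SLC7A8 (LAT2), a carrier of neutral amino acids, was at 0.467, 0.467 and 1.17 CPM untreated and 2.05, 1.87 and 1.54 CPM treated in EV, 0.343, 0.794 and 0.495 CPM untreated and 0.696, 0.540 and 1.40 CPM treated in WT and 0.301, 0.314 and 0.228 CPM untreated and 1.76, 1.72 and 1.18 CPM treated in MUT. SLC7A10 (Asc-1), a carrier of small neutral amino acids such as serine, was at 1.40, 1.58 and 1.29 CPM untreated and 4.79, 2.62 and 3.42 CPM treated in EV, 0.736, 0.370 and 0.660 CPM untreated and 0.696, 0.919 and 1.16 CPM treated in WT and 1.15, 0.503 and 0.971 CPM untreated and 4.53, 2.87 and 3.31 CPM treated in MUT. For both genes treated libraries lay above untreated ones in EV and MUT, while the WT groups overlapped. SLC7A8 changed by 1.37 in EV, 0.70 in WT and 2.44 in MUT and SLC7A10 by 1.34 in EV, 0.64 in WT and 2.00 in MUT on the log2 scale, past the threshold in EV and MUT. The call for SLC7A8 in EV was lost without untreated EV replicate 1 or 2, where the log2 fold change was 1.15 and the adjusted p in edgeR 0.0523 to 0.0525. SLC7A8 needed its treated libraries to pass the filter on low counts, so its direction is not independent of that filter. LRP3, which overlaps SLC7A10 and held 26237 counts in all against 669 for SLC7A10, changed by 0.74, 0.67 and 0.65. PREPL, SPATA6L, AC008014.1 and TRMT5 likewise overlap SLC3A1, SLC1A1, SLC38A4 and SLC38A6, and without strand the reads of such a pair cannot be told apart.

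SLC7A7 (y+LAT1), whose loss causes lysinuric protein intolerance, passed only in EV by this test. It was at 0.409, 0.409 and 0.430 CPM untreated and 1.17, 1.44 and 1.11 CPM treated, and at 0.736, 0.847 and 0.440 CPM untreated and 1.02, 0.432 and 0.725 CPM treated in WT and 0.602, 0.503 and 0.571 CPM untreated and 0.879, 0.958 and 1.13 CPM treated in MUT. The log2 fold change was 1.55 in EV, 0.11 in WT and 0.81 in MUT (SE 0.374, 0.359 and 0.360), and the WT groups overlapped while those of EV and MUT did not. In MUT it passed with upper-quartile scaling (adjusted p 0.0483 in edgeR). The other heavy chain, SLC3A1, which pairs with SLC7A9 in the kidney, reached at most 1.44 CPM and passed in no line, at 0.57 in EV, 1.19 in WT and 0.95 in MUT, although in WT it passed without treated WT replicate 3 (1.70, adjusted p in edgeR 0.0349).

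**Figure D4:**
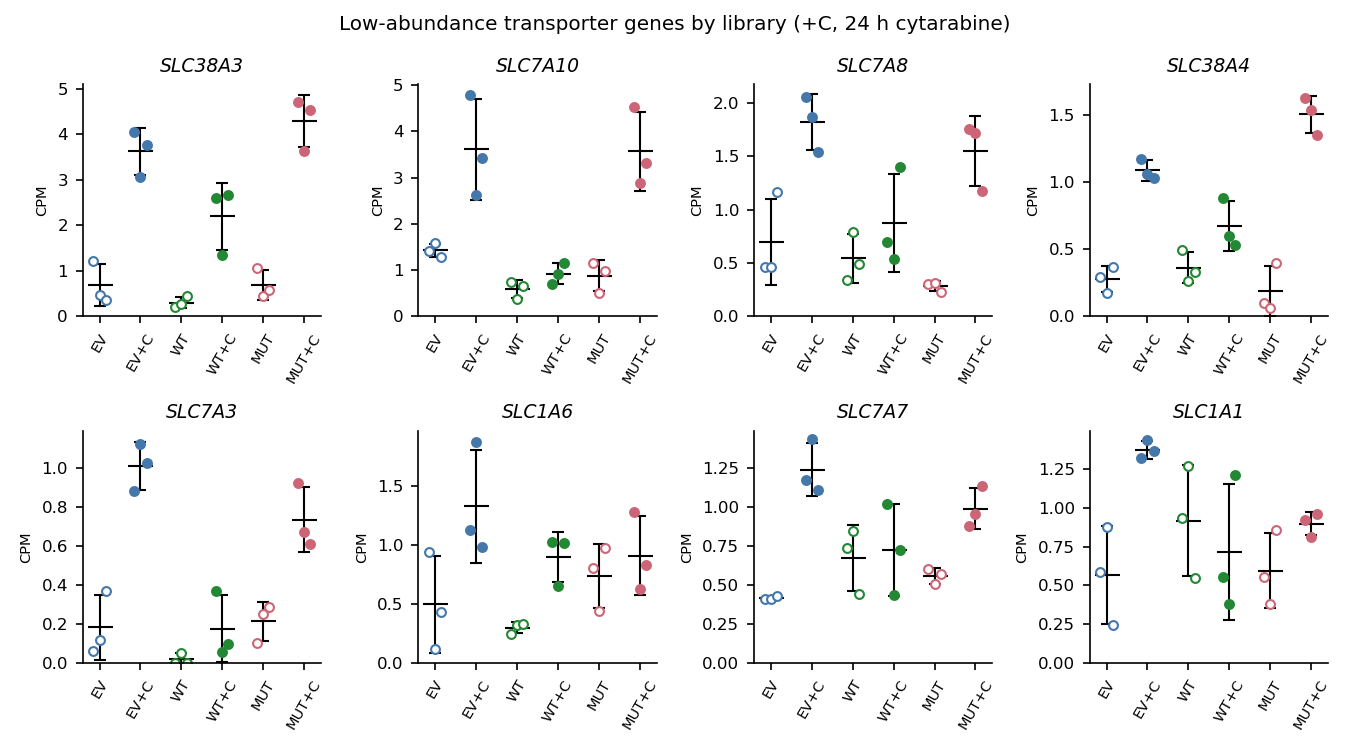
Levels of 8 rarely read transporter genes by library (CPM, linear axes), open untreated and filled treated, with the group mean ± SD (n = 3) in black. SLC38A3 lies higher in the treated libraries of each line, while SLC7A8, SLC7A10 and SLC7A7 overlap between treatments in WT.

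The cationic amino acid transporters split in the same way. SLC7A1 (CAT1; chromosome 13, 29509410 to 29595689, minus strand), the widespread arginine and lysine carrier, was at 236, 238 and 241 CPM untreated and 122, 162 and 148 CPM treated in EV, 223, 221 and 234 CPM untreated and 169.6, 175 and 171 CPM treated in WT and 271, 299 and 203 CPM untreated and 189.7, 199.5 and 190.0 CPM treated in MUT. Treated and untreated libraries did not overlap in any line. It changed by -0.73 in EV, -0.39 in WT and -0.42 in MUT (SE 0.108, 0.107 and 0.107). SLC7A2 (CAT2), a related carrier, was at 67.3, 68.9 and 72.1 CPM untreated and 39.0, 50.005 and 45.8 CPM treated in EV, 57.3, 59.6 and 60.3 CPM untreated and 41.0, 42.6 and 42.6 CPM treated in WT and 63.4, 69.9 and 55.3 CPM untreated and 44.6, 43.3 and 43.3 CPM treated in MUT. It likewise fell without overlap, its log2 fold changes being -0.63 in EV, -0.49 in WT and -0.52 in MUT (SE 0.0848, 0.0849 and 0.0845; adjusted p in edgeR 5.3e-06, 8.8e-05 and 3.2e-05).

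SLC7A3 (CAT3) rose from very few reads, and only its treated libraries brought it past the filter on low counts. The untreated libraries held 1, 2 and 6 counts in EV, 0, 1 and 0 in WT and 2, 4 and 5 in MUT, and the treated ones 18, 18 and 24 in EV, 8, 1 and 2 in WT and 21, 14 and 14 in MUT. The test called the gene higher in all 3 lines, with a fitted log2 rise of 2.45 (SE 0.630) for EV and of 1.79 (SE 0.619) for MUT. Untreated WT libraries were at the floor of 3 counts a library, so no fold is given there, and treated WT replicate 1 held most of the treated counts. The call in MUT was lost without treated MUT replicate 1 or untreated MUT replicate 1, where the log2 fold change was 1.43 to 1.59 and the adjusted p in edgeR 0.0702 to 0.0933. The call in WT was lost without treated WT replicate 1 or untreated WT replicate 1 or 3 (adjusted p in edgeR 0.0975 to 0.264).

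In the SLC1 family the neutral exchangers moved in opposite directions. SLC1A5 (ASCT2; chromosome 19, 46774883 to 46788595, minus strand), which exchanges glutamine for other neutral amino acids, was at 433, 401 and 397 CPM untreated and 259, 296 and 263 CPM treated in EV. WT cells held 363, 369.5 and 376 CPM untreated and 293, 320.1 and 289 CPM treated and MUT cells 388, 521 and 444 CPM untreated and 281, 301 and 289.8 CPM treated. It fell without overlap, and the log2 fold changes were -0.59 in EV, -0.30 in WT and -0.63 in MUT (SE 0.0859, 0.0856 and 0.0858; adjusted p in edgeR 1.3e-05, 0.00718 and 4.0e-06).

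SLC1A4 (ASCT1; chromosome 2, 64988477 to 65023866, plus strand), an exchanger of alanine, serine and cysteine, rose in all 3 lines. Its libraries held 57.3, 61.2 and 59.5 CPM untreated and 72.0, 84.5 and 75.5 CPM treated in EV, 58.8, 54.7 and 59.5 CPM untreated and 98.9, 104 and 95.2 CPM treated in WT and 74.2, 96.9 and 72.0 CPM untreated and 129, 121 and 124 CPM treated in MUT. Every treated library was above every untreated one of its line. Its rise was 0.38 in EV, 0.78 in WT and 0.62 in MUT on the log2 scale (SE 0.0924, 0.0918 and 0.0906; adjusted p in edgeR 0.00199, 9.5e-07 and 9.5e-06).

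Of the glutamate transporters, SLC1A3 (EAAT1), the most read of them, fell in EV and WT, with log2 fold changes of -0.22 and -0.25, and gave -0.19 in MUT, where it did not pass. The EV call was lost with a minimum mean of 50 counts or upper-quartile scaling (adjusted p 0.110 to 0.173 in edgeR), and the WT call with upper-quartile scaling (adjusted p 0.0586 in edgeR). The call in EV was lost without treated EV replicate 2 or 3 or untreated EV replicate 1 or 2 (adjusted p in edgeR 0.0556 to 0.144). The call in WT was lost without treated WT replicate 2 or 3 or untreated WT replicate 1 (adjusted p in edgeR 0.0526 to 0.116). In MUT it passed without treated MUT replicate 1 (-0.24, adjusted p in edgeR 0.0430), without untreated MUT replicate 3 (-0.24, adjusted p in edgeR 0.0409), and with DESeq2, the authors' factors or DESeq2 size factors in edgeR (adjusted p 0.0125 to 0.0306 in edgeR or DESeq2). SLC1A6 (EAAT4) and SLC1A1 (EAAT3) stayed under 2 CPM. SLC1A6 was at 0.935, 0.117 and 0.430 CPM untreated and 1.12, 1.87 and 0.984 CPM treated in EV, 0.245, 0.317 and 0.330 CPM untreated and 1.02, 0.648 and 1.02 CPM treated in WT and 0.802, 0.440 and 0.971 CPM untreated and 1.27, 0.622 and 0.828 CPM treated in MUT, and its log2 change, 1.39 in EV, 1.58 in WT and 0.29 in MUT, passed in EV and WT. The call in EV was lost without treated EV replicate 2 or untreated EV replicate 2 or 3, where the log2 fold change was 0.93 to 1.31 and the adjusted p in edgeR 0.0814 to 0.128. It was also lost with only the compared groups in the fit (adjusted p 0.0501 in edgeR). The call in WT was lost without treated WT replicate 1 or 3 or untreated WT replicate 1, where the log2 fold change was 1.45 to 1.48 and the adjusted p in edgeR 0.0585 to 0.0718. SLC1A1 was at 0.584, 0.876 and 0.246 CPM untreated and 1.32, 1.44 and 1.37 CPM treated in EV, at 0.932, 1.27 and 0.550 CPM untreated and 0.557, 0.378 and 1.21 CPM treated in WT and at 0.552, 0.377 and 0.857 CPM untreated and 0.923, 0.814 and 0.959 CPM treated in MUT. It passed in EV only by this test (1.26 in EV, -0.35 in WT and 0.58 in MUT), and the groups overlapped in WT and MUT. The call for SLC1A1 was lost without treated EV replicate 2 or 3 or untreated EV replicate 1 or 3, where the log2 fold change was 0.90 to 1.27 and the adjusted p in edgeR 0.0601 to 0.139. SPATA6L, which overlaps SLC1A1 on the opposite strand and held 68.7% as many counts, changed by 1.27 in EV, 0.95 in WT and 1.43 in MUT.

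In the SLC38 family of sodium-coupled neutral amino acid transporters, SLC38A10, an incompletely characterised member, rose in all 3 lines. EV cells held 76.1, 73.8 and 78.5 CPM untreated and 98.4, 114 and 116 CPM treated, WT cells 80.9, 75.7 and 71.8 CPM untreated and 117, 120.4 and 120.4 CPM treated and MUT cells 69.6, 73.7 and 81.4 CPM untreated and 97.1, 98.3 and 109 CPM treated, with no overlap. On the log2 scale this was 0.53 in EV, 0.65 in WT and 0.44 in MUT (SE 0.0767, 0.0763 and 0.0765). SLC38A3 (SNAT3), a glutamine carrier best known from liver and brain, had the largest rise among members called in all 3 lines without a group at the floor. It was at 1.23, 0.467 and 0.369 CPM untreated and 4.06, 3.06 and 3.76 CPM treated in EV, 0.196, 0.265 and 0.440 CPM untreated and 2.598, 1.35 and 2.66 CPM treated in WT and 1.05, 0.440 and 0.571 CPM untreated and 4.70, 3.64 and 4.53 CPM treated in MUT. Treated libraries lay above untreated ones throughout, at 2.39 in EV, 2.87 in WT and 2.602 in MUT (SE 0.384, 0.439 and 0.376; adjusted p in edgeR 3.9e-05, 2.2e-05 and 8.8e-06). SLC38A3 needed its treated libraries to pass the filter on low counts, so its direction is not independent of that filter.

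SLC38A4, a further rarely read member, was at 0.292, 0.175 and 0.369 CPM untreated and 1.17, 1.06 and 1.03 CPM treated in EV, 0.490, 0.265 and 0.330 CPM untreated and 0.881, 0.594 and 0.532 CPM treated in WT and 0.1003, 0.0629 and 0.400 CPM untreated and 1.63, 1.53 and 1.35 CPM treated in MUT. Treated and untreated libraries did not overlap in any line, and it changed by 1.94 in EV, 0.87 in WT and 2.96 in MUT (SE 0.466, 0.454 and 0.479), past the threshold in EV and MUT. AC008014.1, which overlaps it on the opposite strand and held 70.1% as many counts, changed by 1.56, 0.27 and 1.77. Reads of this pair cannot be told apart without strand.

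SLC38A2 (SNAT2), the most read member of the family and a carrier whose gene is induced by amino acid shortage, moved by under 0.25 on the log2 scale. EV libraries held 417, 408 and 439 CPM untreated and 309, 389.8 and 378 CPM treated, WT libraries 431, 426 and 415 CPM untreated and 397, 381 and 369 CPM treated and MUT libraries 377, 324 and 369.6 CPM untreated and 403, 414 and 403 CPM treated. Treated libraries lay below untreated ones in EV and WT and above them in MUT. The log2 fold change was -0.23 in EV, -0.15 in WT and 0.19 in MUT (SE 0.0779, 0.0778 and 0.0778; adjusted p in edgeR 0.0185, 0.124 and 0.0464). The call in EV was lost without treated EV replicate 1 or untreated EV replicate 3, where the log2 fold change was -0.20 to -0.13 and the adjusted p in edgeR 0.0766 to 0.124. The call in MUT was lost without treated MUT replicate 1 or 2 or 3 or untreated MUT replicate 2 or 3, where the log2 fold change was 0.08 to 0.20 and the adjusted p in edgeR 0.0501 to 0.354. The EV call was also lost with upper-quartile scaling (adjusted p 0.0698 in edgeR). The MUT call was lost with DESeq2, the authors' factors, DESeq2 size factors in edgeR, no filter on low counts or only the compared groups in the fit (adjusted p 0.0903 to 0.272 in edgeR or DESeq2).

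SLC38A1 (SNAT1), a glutamine carrier, fell in EV and WT, with log2 fold changes of -0.38 and -0.25, and gave -0.13 in MUT, not past the threshold. The call in WT was lost without treated WT replicate 1 or 3 or untreated WT replicate 1, where the log2 fold change was -0.23 to -0.20 and the adjusted p in edgeR 0.0745 to 0.105. SLC38A9, the lysosomal arginine sensor upstream of mTORC1, gave 0.08 in EV, 0.18 in WT and -0.01 in MUT, the lysosomal exporter SLC38A7 -0.14 in EV, 0.03 in WT and -0.06 in MUT, SLC38A6 0.22 in EV, 0.11 in WT and 0.23 in MUT and SLC38A5 1.00 in EV, 1.31 in WT and 0.59 in MUT, none of them past the threshold. SLC38A9 passed in WT with upper-quartile scaling (adjusted p 0.0484 in edgeR). SLC38A5 passed in WT with DESeq2, only the compared groups in the fit or upper-quartile scaling (adjusted p 0.00725 to 0.0483 in edgeR or DESeq2). It passed in EV without untreated EV replicate 3 (2.22, adjusted p in edgeR 0.00694).

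Of the proton-coupled SLC36 family, SLC36A4 fell in all 3 lines and SLC36A1, a lysosomal amino acid exporter, passed in none (0.05 in EV, 0.12 in WT and 0.28 in MUT). SLC36A1 passed in MUT without untreated MUT replicate 2 (0.46, adjusted p in edgeR 0.00101) and with upper-quartile scaling (adjusted p 0.0422 in edgeR). SLC36A4 was at 20.04, 18.5 and 21.4 CPM untreated and 11.4, 14.98 and 13.9 CPM treated in EV, 21.4, 16.5 and 17.5 CPM untreated and 15.9, 13.5 and 13.0 CPM treated in WT and 14.4, 15.7 and 18.4 CPM untreated and 11.3, 14.1 and 13.3 CPM treated in MUT, without overlap in any line. It changed by -0.57 in EV, -0.39 in WT and -0.33 in MUT (SE 0.133, 0.131 and 0.133). The call in WT was lost without treated WT replicate 2 or 3 or untreated WT replicate 1, where the log2 fold change was -0.36 to -0.27 and the adjusted p in edgeR 0.0645 to 0.134. The call in MUT was lost without treated MUT replicate 1 or 3 or untreated MUT replicate 3, where the log2 fold change was -0.35 to -0.24 and the adjusted p in edgeR 0.0688 to 0.183. It was also lost there with only the compared groups in the fit or upper-quartile scaling (adjusted p 0.0649 to 0.0786 in edgeR).

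In the SLC43 family SLC43A2 (LAT4), which lets branched-chain amino acids and phenylalanine leave cells, fell in all 3 lines. It was at 16.2, 17.1 and 18.6 CPM untreated and 10.2, 12.7 and 13.2 CPM treated in EV, 14.2, 15.2 and 15.01 CPM untreated and 7.56, 8.70 and 8.66 CPM treated in WT and 19.3, 21.5 and 17.0 CPM untreated and 10.02, 9.82 and 11.5 CPM treated in MUT. No groups overlapped, and the log2 fold change was -0.53 in EV, -0.83 in WT and -0.88 in MUT (SE 0.115, 0.119 and 0.115; adjusted p in edgeR 8.7e-04, 9.7e-06 and 2.6e-06). SLC43A3, a purine nucleobase carrier despite its family name, fell in EV and MUT, with log2 fold changes of -0.48 and -0.31, and gave -0.12 in WT, not past the threshold. SLC43A1 (LAT3) passed only in WT by this test, at 0.27 in EV, 0.38 in WT and 0.19 in MUT. The call in WT was lost without treated WT replicate 3 or untreated WT replicate 1 or 3, where the log2 fold change was 0.28 to 0.35 and the adjusted p in edgeR 0.0626 to 0.105. In EV it passed without untreated EV replicate 2 (0.35, adjusted p in edgeR 0.0448) and with a minimum mean of 50 counts or upper-quartile scaling (adjusted p 0.0258 to 0.0298 in edgeR).

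Whether a line's response differed from another's was tested directly, and no transporter passed in edgeR with all libraries in the fit. For WT against EV 0 of 30 members were called by edgeR, where 0.285% of all genes were, with 9 members at an unadjusted p under 0.05 and 1 called by DESeq2. For MUT against EV it was 0, where 0.214% of all genes were called, with 4 at an unadjusted p under 0.05 and 2 by DESeq2. For MUT against WT it was 0, where 1.00% of all genes were called, with 6 at an unadjusted p under 0.05 and 1 by DESeq2. The percentages are those of edgeR. DESeq2 called 138, 554 and 803 of all 18226 tested genes in these comparisons, in the same order. The number of all genes at an unadjusted p under 0.05 is not given here. Members called in one line and not in another, such as SLC7A8, SLC7A10 and SLC38A4, are thus not shown to respond differently by that test.

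The closest to the threshold was SLC43A3, whose effect was 0.37 (SE 0.0847) higher in WT than in EV on the log2 scale, with an adjusted p of 0.0872 in edgeR and 0.0016 in DESeq2. It also passed in edgeR with only the compared groups in the fit (adjusted p 0.00999). Its libraries held 155, 157 and 157 CPM untreated and 111, 111 and 113 CPM treated in EV and 151, 149.9 and 154 CPM untreated and 136, 148 and 136 CPM treated in WT. SLC38A2 differed by 0.42 (SE 0.110) between MUT and EV, with an adjusted p of 0.103 in edgeR, 0.0187 in DESeq2 and 0.0341 in edgeR without untreated MUT replicate 1. SLC7A11 differed by 0.56 (SE 0.155) between MUT and EV, with an adjusted p of 0.112 in edgeR and 0.0385 in DESeq2. Between MUT and WT, SLC1A5 differed by -0.34 (SE 0.121) and passed without untreated MUT replicate 1 (-0.44, adjusted p in edgeR 0.0268). It also passed with DESeq2 (-0.39, adjusted p 0.0462). SLC38A4 differed by 2.09 (SE 0.677) and passed without untreated MUT replicate 3 (3.17, adjusted p in edgeR 0.0315). The WT and MUT comparisons share the EV libraries.

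Between the lines fewer transporters differed, 16.7% to 36.7% of the tested members by comparison, beside 11.7% to 21.2% of all genes. Without drug, 5 members differed between WT and EV, all lower in WT, where 11.7% of all genes passed, 4.30% higher and 7.36% lower. For MUT against EV it was 6, 1 higher and 5 lower (19.9% of all genes, 9.88% higher and 10.0% lower), and for MUT against WT 10, 6 higher and 4 lower (21.2%, 11.7% and 9.54%). The last split was 6 higher and 2 lower with DESeq2, and 6 higher and 1 lower in edgeR with DESeq2 size factors or the authors' factors. Under cytarabine 9 differed between WT and EV, 4 higher and 5 lower (16.5% of all genes, 7.41% higher and 9.12% lower). It was 6 between MUT and EV, 3 in each direction (14.0%, 6.85% and 7.13%), and 11 between MUT and WT, 6 higher and 5 lower (19.8%, 10.4% and 9.48%). When single libraries were left out, the untreated MUT against WT count was 4 without untreated WT replicate 1 or untreated WT replicate 3. The treated count of that pair was 2 without treated MUT replicate 1, 6 without treated MUT replicate 2 or treated MUT replicate 3, 6 without treated WT replicate 1, 4 without treated WT replicate 2 and 3 without treated WT replicate 3. Without any 1 of the untreated MUT libraries the counts were 6 against EV and 9 or 10 against WT, but not of the same members. Against EV the call of SLC7A5 was lost without untreated MUT replicate 1 or 3, and that of SLC38A2 without replicate 2. Against WT, SLC38A1 was lost without untreated MUT replicate 1 or 3, and SLC38A2 without replicate 2. SLC7A3 was lost there without replicate 2 or 3, and SLC7A6 without replicate 3. With only the compared groups in the fit 12 members differed between untreated WT and EV, 3 between MUT and EV, and 2 between MUT and WT. Of all genes tested in those fits, 5101 of 16173, 935 of 16048 and 1171 of 16356 were called, so the counts over all genes moved too. The 3 comparisons within a treatment share libraries with each other.

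The glutamate transporter SLC1A3 (chromosome 5, 36606355 to 36688335, plus strand) was lower in both DNMT3A lines, with and without drug. It stood at 44.6, 41.8 and 39.9 CPM in untreated EV, 22.1, 19.6 and 19.9 in untreated WT and 21.9, 23.3 and 21.9 in untreated MUT. The treated libraries held 37.2, 36.7 and 34.9 in EV, 18.7, 17.2 and 15.8 in WT and 20.9, 17.8 and 19.96 in MUT. All EV libraries lay above all of both other lines under the same treatment. The log2 difference from EV was -1.04 (SE 0.0843) in WT and -0.91 (SE 0.0842) in MUT without drug, and -1.07 (SE 0.0849) and -0.89 (SE 0.0837) under cytarabine. Tested genes within 5 Mb of it had median differences of -0.02 and 0.01 without drug.

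SLC43A1 (LAT3) was lower in WT than in both other lines. It stood at 10.9, 11.7 and 8.92 CPM in untreated EV, 5.64, 7.72 and 6.21 in untreated WT and 12.9, 12.9 and 12.6 in untreated MUT, and at 13.3, 12.2 and 12.4, 8.35, 7.94 and 9.14 and 13.6, 15.03 and 15.2 under cytarabine. The WT libraries did not overlap with those of EV or MUT under the same treatment. WT differed from EV by -0.69 (SE 0.126) without drug and -0.58 (SE 0.120) with it, and MUT from WT by 0.97 (SE 0.124) and 0.78 (SE 0.119), with an adjusted p of 2.0e-05 in edgeR for MUT against WT without drug.

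SLC7A6 was lower in untreated MUT than in untreated EV cells (log2 difference -0.68, SE 0.0896), with the values given above for both groups and no overlap. Its neighbours on chromosome 16 moved with it: over 134 tested genes within 5 Mb the median difference was -0.43, and 60 of them were called lower. In WT against EV the gene differed by -0.42 (SE 0.0888) and its neighbours by a median of -0.25. The part of this regional shift in the SLC7A6 difference was not tested.

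**Figure D5:**
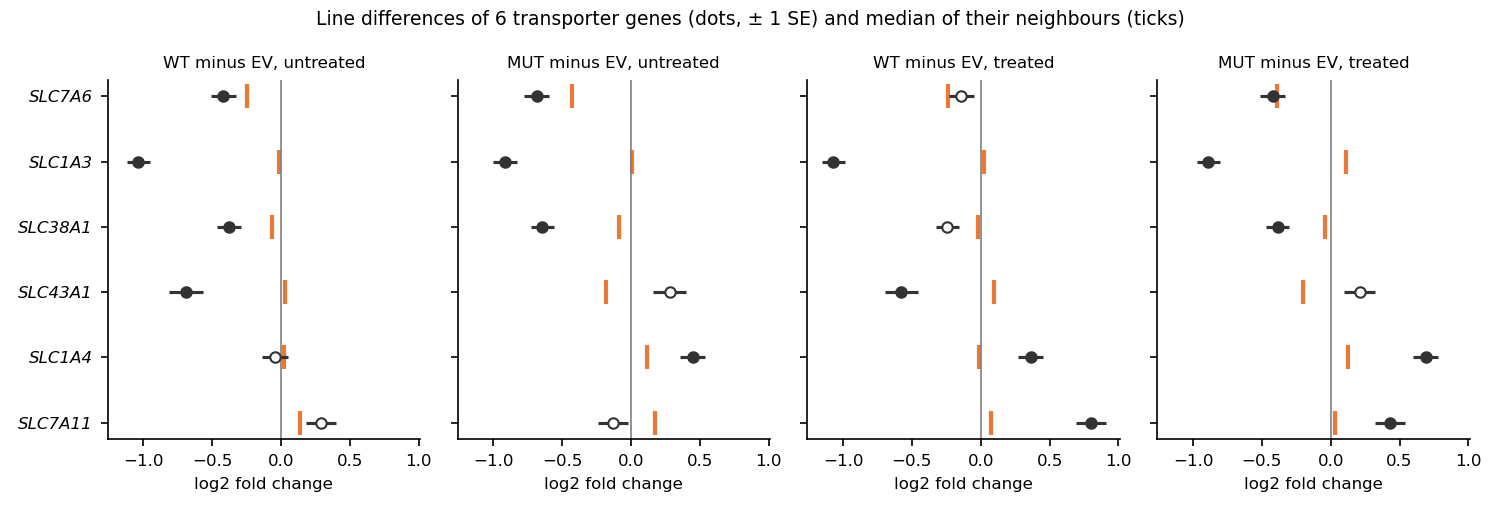
Differences between lines as log2 fold change for 6 transporter genes (dots, with bars of 1 standard error, filled where past the edgeR threshold) beside the median of tested genes within 5 Mb of each (orange ticks), in WT and MUT against EV without and with cytarabine. SLC1A3 stands far from its neighbours' median in WT and MUT against EV, while the neighbours of SLC7A6 are shifted in the same direction as the gene.

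SLC38A1 was lower in untreated MUT than in untreated EV cells (log2 difference -0.64, SE 0.0860). EV libraries held 123, 111 and 122 CPM untreated and 83.3, 102 and 89.0 CPM treated, WT libraries 97.6, 88.3 and 88.8 CPM untreated and 74.2, 82.1 and 74.9 CPM treated and MUT libraries 75.7, 85.5 and 67.4 CPM untreated and 69.6, 69.9 and 69.9 CPM treated. Untreated EV and untreated MUT did not overlap. SLC1A4 was higher in MUT, at 0.45 (SE 0.0925) against EV without drug and 0.69 (SE 0.0905) with it, from the values given above, which did not overlap in either condition. The untreated difference did not pass when the fit held only the 2 groups compared. SLC7A11 was higher in treated WT than in treated EV cells, by 0.80 (SE 0.108), and SLC43A2 was lower, at -0.53 (SE 0.120), both without overlap.

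Among the rarely read members, SLC7A10 was lower in WT than in EV, at -1.26 (SE 0.361) on the log2 scale without drug and -1.97 (SE 0.316) with it, and higher in treated MUT than in treated WT by 1.94 (SE 0.315). The call of WT against EV without drug was lost without untreated EV replicate 1 or 2 or 3 or untreated WT replicate 2 or 3, where the log2 fold change was -1.34 to -1.03 and the adjusted p in edgeR 0.0506 to 0.129. SLC38A3 and SLC38A4 were higher in treated MUT than in treated WT, by 0.95 (SE 0.327) and 1.15 (SE 0.396), and each of these calls was lost without any 1 of the 6 libraries, and with no filter on low counts. Without a library the highest adjusted p in edgeR was 0.205 and 0.164. SLC7A3 was called higher in MUT than in WT in both conditions and lower in treated WT than in treated EV, on the counts given above. The WT groups were at or near the floor, so no fold is given. The call of MUT against WT without drug was lost without untreated MUT replicate 2 or 3 or untreated WT replicate 1 or 3 (adjusted p in edgeR 0.0744 to 0.143). It was also lost with no filter on low counts (adjusted p 0.0518 in edgeR). The call of MUT against WT under cytarabine was lost without treated MUT replicate 1 or 2 or treated WT replicate 2 or 3 (adjusted p in edgeR 0.0537 to 0.133). The call of WT against EV under cytarabine was lost without treated WT replicate 2 or 3 (adjusted p in edgeR 0.0565 to 0.0605).

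The genes around the transporters were counted with lists written by function, beside all-gene medians of 0.05, 0.03 and 0.05 in EV, WT and MUT. Of all tested genes, 26.1% rose and 22.9% fell in EV, 26.3% and 22.7% in WT, and 30.4% and 25.9% in MUT. Results on these lists, those in MUT included, were not examined with a library left out. Of 29 tested ATF4 response genes, 10 rose and 9 fell in EV, 16 and 3 in WT, and 12 and 7 in MUT (median log2 fold change 0.03, 0.33 and 0.11). ATF4 itself fell in all 3 lines (-0.48, -0.28 and -0.52 in EV, WT and MUT). ASNS, the asparagine synthetase and a well-known ATF4 target, rose in WT and fell in MUT (0.09, 0.33 and -0.20, the EV value not called). SESN2, a leucine sensor, rose in WT and MUT (0.06, 0.30 and 0.38, the EV value not past the threshold), and DDIT3 did not pass (0.08, 0.60 and 0.64). The largest changes of the list were those of ATF5 (-1.07, -0.87 and -1.13), STC2 (1.11, 2.01 and 1.71) and FGF21 (2.84, 3.07 and 3.56), a secreted hormone.

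Of 37 mTORC1 sensing genes, 12 rose and 14 fell in EV, 9 and 14 in WT, and 15 and 14 in MUT (median log2 fold change 0.02, 0.03 and -0.20). The Rag GTPase RRAGD gave 1.31, 1.42 and 1.47, the transcription factor TFEB 0.79, 0.90 and 0.94, and ITFG2, a subunit of the KICSTOR complex, -0.94, -1.13 and -0.78. Of 19 of 20 cystine and glutathione genes tested, 3 rose and 9 fell in EV, 5 and 10 in WT, and 4 and 10 in MUT (median log2 fold change -0.22, -0.20 and -0.18). GCLM did not pass in any line (-0.17, -0.15 and -0.12), and the glutathione hydrolase GGT1 gave 0.87, 0.37 and 1.14, the WT value not past the threshold. GGT7, of the same family, rose in all 3 lines (0.73, 0.48 and 0.70), as did the heme oxygenase HMOX1 (0.65, 1.11 and 0.55).

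Of 22 genes of glutamine, proline and arginine metabolism, 6 rose and 11 fell in EV, 9 and 6 in WT, and 5 and 11 in MUT (median log2 fold change -0.17, 0.07 and -0.19). GLS2, a glutaminase, went from 1, 3 and 2 counts to 46, 21 and 43 in EV, from 0, 0 and 0 to 23, 3 and 16 in WT, and from 1, 1 and 1 to 79, 74 and 49 in MUT. PRODH, the proline dehydrogenase, went from 0, 0 and 6 counts to 18, 12 and 21 in EV, from 9, 0 and 0 to 34, 29 and 28 in WT, and from 0, 0 and 0 to 16, 15 and 12 in MUT. KYNU, the kynureninase of tryptophan breakdown, rose in all 3 lines (2.20, 1.67 and 2.76). Of 21 of 32 amino acid carriers of other families tested, 8 rose and 9 fell in EV, 7 and 6 in WT, and 8 and 7 in MUT (median log2 fold change 0.02, -0.02 and -0.10). The largest changes of that list were those of SLC15A2, SLC15A3 and SLC16A10, past the threshold in each line except for SLC15A2 in WT. The dipeptide carrier SLC15A2 went from 2, 2 and 2 counts to 11, 15 and 14 in EV. In WT it went from 6, 13 and 9 to 20, 13 and 12 counts, and in MUT from 7, 0 and 7 to 16, 19 and 25. Untreated EV was at the floor, so no fold is given there, and the others were 0.59 in WT and 1.78 in MUT. SLC15A3 gave 1.24, 1.43 and 1.13, and the aromatic amino acid carrier SLC16A10 0.80, 1.25 and 1.53.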

How the data were processed

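RNA of 18 libraries was analysed from 1 table of estimated counts per gene symbol, deposited by the authors without normalization (70.4% of the values were exactly whole). A second deposited table of normalized signal from the authors equalled 1 plus a library factor times the estimated count (largest relative deviation 7.32e-06), and only these factors were used, in an alternative. STAR 2.6.1d, CASAVA and the build hg38 are named per the submitters' processing notes. The counting tool, its strand setting and its treatment of multi-mapping reads are not given in the sources used here. Rounded estimated counts were fitted with edgeR 4.0.16 in R 4.3.3 (filterByExpr, TMM factors, quasi-likelihood F test, 1 fit with 6 group coefficients), and p-values were adjusted over 18226 genes by Benjamini and Hochberg. The threshold was an adjusted p under 0.05, and the procedure was tested on simulated data. Standard errors are the absolute log2 fold change over the square root of F. CPM refers to the TMM-scaled library size. A group was at the floor when every library held at most 3 counts. Levels per kb used the GENCODE canonical transcript. Alternatives were DESeq2 1.42.0, other scaling factors, other filters, smaller fits, a replicate block and leaving out each library.

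Values in every library are given for members called with an absolute log2 fold change of at least 0.5 in a cytarabine effect, or called in a difference of effects or a line comparison of that size. Of each list of neighbouring function, the 3 genes with the largest mean cytarabine effect could be named, beside ATF4, ASNS, DDIT3, SESN2 and GCLM. A further gene under this rule is not reported here. The members and lists were chosen with earlier results of these data known. Same-numbered libraries of different groups were not treated as pairs. Library totals of 15.4 to 21.9 M counts leave genes under about 1 CPM with few reads, and their values carry counting error beside the spread between cultures.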

Additional observations from a re-analysis of the deposited data

How the results depend on the processing

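Over 133 results on single members, 1868 values under other settings were compared: 1653 kept direction and side of the threshold, 183 lost the call, 30 gained one and 2 reversed. The reversed values were SLC3A1 in WT at -0.0451 without treated WT replicate 1 (-0.0451 to 1.70 over the libraries left out), and SLC1A6 in MUT at -0.0298 without treated MUT replicate 1 (-0.0298 to 0.50). Of 104 called results, 63 passed in every alternative. Called members in EV numbered 14 when genes needed a mean of 50 counts, which removes the rarely read members from the test. With only the compared groups in the fit, the untreated counts were 12 (WT and EV), 3 (MUT and EV) and 2 (MUT and WT). Of all genes in those fits, 5101 of 16173, 935 of 16048 and 1171 of 16356 were called. The cause was not tested. For differences of effects, DESeq2 called 1 member between WT and EV, 2 between MUT and EV and 1 between MUT and WT. It called 138, 554 and 803 of all 18226 tested genes there. The fit of only the compared groups called 2 members between WT and EV, and 278 of all 17624 genes in that fit. Leaving out single libraries gave 10 to 16 members called in WT, 19 to 21 in EV and 15 to 18 in MUT. The range was 0 to 1 for either difference of effects that involves MUT, 4 to 10 for untreated MUT against WT and 2 to 6 for treated MUT against WT. A replicate block, fitted although the correlations of same-numbered libraries (-0.18 to 0.35 over 45 pairs of groups and numbers, 7 above 0.1) do not pair the cultures, gave 23, 17 and 17 members called in EV, WT and MUT. With this block the MUT calls of SLC36A4 and SLC38A2 and the MUT against WT calls of SLC7A3 without drug and SLC38A4 under cytarabine were not made, and SLC38A5 in WT and SLC1A3 in MUT passed. Low depth limits the members under about 1 CPM.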

Other observations

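The members too rarely read to be tested stayed near 0 in every group. SLC7A9, the light chain that pairs with SLC3A1 in the kidney, held 2, 3 and 0 counts in the untreated MUT libraries and 7, 14 and 5 in the treated ones. SLC1A7, a glutamate transporter of the retina, held 4, 0 and 0 and 8, 1 and 10 counts in the same groups, and SLC1A2, the main glutamate transporter of astrocytes, 1, 1 and 1 and 0, 1 and 6. SLC7A5P1 and SLC7A5P2, pseudogenes of SLC7A5, held 0.138% and 0.402% as many counts as SLC7A5 itself.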
